A study of Homo sapiens with 9 samples.

Results

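The G1 cyclins, cyclin-dependent kinases (CDKs) and CDK inhibitors described here are 10 genes of the 17637 in a table of gene counts from KOPTK1, an established line of human T-ALL (acute lymphoblastic leukaemia of T cells). They were picked by symbol as the G1/S inhibitors CDKN1B, CDKN2C and CDKN2D, the D-type cyclins CCND2 and CCND3, the kinases CDK4, CDK6 and CDK2, and the E-type cyclins CCNE1 and CCNE2. All 10 were present and all 10 passed the filter on low counts. Each group held 3 libraries of poly(A)+ RNA. The group shDHX15_MYC carried a short hairpin RNA (shRNA) against the RNA helicase DHX15 together with a MYC coding region, both delivered by lentivirus. The group shDHX15 carried the hairpin alone, and the group shControl carried a control hairpin that the deposited column names give as directed at GFP. All groups shared the same parental line, labelled wild type, and the column names give 1 hairpin number for DHX15. No group with added MYC and a control hairpin is among the libraries, and neither the time after transduction nor the vector carried by the cells without added MYC is given in the labels. The series asks, in its design text, about MYC as a downstream target of DHX15.

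In the G1 phase, D-type cyclins activate CDK4 and CDK6, which begin to phosphorylate the retinoblastoma protein, and E-type cyclins with CDK2 complete this and free the E2F factors that switch on S-phase genes. The INK4 inhibitors, which include CDKN2C and CDKN2D, bind CDK4 and CDK6, whereas CDKN1B, a CIP/KIP inhibitor, binds whole cyclin-CDK complexes and restrains CDK2 above all. In immature T cells and T-ALL, CCND3 and CDK6 are the best known D-type cyclin and partner kinase, and MYC is known to induce CCND2 and CDK4 and to repress CDKN1B in several cell types.

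RefSeq start-site windows on GRCh38.p14 were searched for 7 of the 10 genes (CDKN1B, CDKN2C, CDKN2D, CCND3, CDK4, CDK6 and CCNE1), 12 windows in all. The search covered the 250 bases upstream of each start on both strands. No window was at hand for CCND2 and CDK2, and CCNE2 was left out of the search, so motifs upstream of these genes were not tested. The E-box CACGTG, the sequence MYC and its partner MAX bind, is its own reverse complement. It occurred in 6.34% of the 35116 upstream windows of all genes, and at least 3 copies stood in 28 of them (0.0797%). CDK4 had 3 copies, starting 216, 196 and 101 bases before its start (positions -216, -196 and -101), and CDKN2C had 1 copy at each of 2 starts, at -220 of the first and -69 of start number 3. The other 9 windows had none. The CDK4 and CDKN2C sites are shown because they are the only matches in these 12 windows, with the E-box in capitals. Most of the CDK4 window lies in exons of GENCODE v29 (211 of its 250 bases), as does all of the CDKN2C window at start number 3 (250 of 250 bases). The window at the first CDKN2C start lies outside annotated exons. Only 30 bases are shown around each site.
CDK4, E-box at -216 (chr12:57752509-57752538, minus strand): atgtcaagcggtCACGTGtgatagcaacag
CDK4, E-box at -196 (chr12:57752489-57752518, minus strand): atagcaacagatCACGTGgctgccatcgcc
CDK4, E-box at -101 (chr12:57752394-57752423, minus strand): atgggtggcggtCACGTGcccagaacgtcc
CDKN2C, first start (chr1:50960513-50960542, plus strand): gattgtgcacctCACGTGgttagtcacaca
CDKN2C, start number 3 (chr1:50970164-50970193, plus strand): ttgctgaataatCACGTGtgaatcgagggg

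For contrast, the upstream sequence of CDK6, the kinase whose level moved against that of CDK4 with the hairpin, and that of CDKN2D, the inhibitor that moved with CDKN2C, are shown as far as they lie outside annotated exons. Neither holds the E-box, so no letters are in capitals.
CDK6, first start, bases -250 to -22 (chr7:92836595-92836823, minus strand): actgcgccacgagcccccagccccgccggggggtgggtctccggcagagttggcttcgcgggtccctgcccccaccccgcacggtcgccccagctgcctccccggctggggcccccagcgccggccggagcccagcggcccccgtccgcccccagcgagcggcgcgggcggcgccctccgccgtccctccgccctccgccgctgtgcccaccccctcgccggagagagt
CDKN2D, bases -250 to -81 (chr19:10569060-10569229, minus strand): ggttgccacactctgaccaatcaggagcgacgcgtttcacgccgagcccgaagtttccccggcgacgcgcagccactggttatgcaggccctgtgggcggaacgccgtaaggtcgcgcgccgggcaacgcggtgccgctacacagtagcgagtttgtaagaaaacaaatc
Neither E2F motif searched (TTTCCCGC and TTTGGCGC, together in 1.93% of all windows) nor the FOXO motif GTAAACA (2.98%) was found in any of the 12 windows. These letters are matches in short windows and say nothing of binding.

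The 9 libraries held 42134302 to 59688062 counts. As the check of the labels, DHX15 averaged 195 ± 2.55 CPM in shDHX15_MYC and 167 ± 13.8 CPM in shDHX15, against 280.3 ± 3.43 CPM in shControl (SD, n = 3 each; CPM is the count scaled to a common library size, here with TMM factors). DHX15 was higher in shDHX15_MYC than in shDHX15 (log2 fold change 0.23, edgeR adjusted p = 1.24e-04), so these groups differ in DHX15 as well as in MYC. The part of this difference in their comparison was not tested. MYC averaged 7098 ± 153 CPM in shDHX15_MYC and 86.9 ± 3.78 CPM in shDHX15, against 109 ± 0.603 CPM in shControl, and the first of these includes reads from the added coding region. Within shDHX15, replicate 1 stood apart: the chi-square of its counts, divided by the degrees of freedom, was 17.3 and 16.4 against replicates 2 and 3, compared with 4.36 between replicates 2 and 3 and 2.71 to 3.19 within the other groups. Values without it are given below for the 10 genes in the comparisons that use shDHX15. Of 15 T-lineage markers, 14 exceeded 1 CPM on average, and their summed level was 1554 to 1591 CPM in shDHX15_MYC and 2519 to 2592 CPM in shDHX15, against 3245 to 3356 CPM in shControl. Summed B-cell markers were at 105 to 109, 46.5 to 48.9 and 51.1 to 53.0 CPM in the same order of groups, with MS4A1 at 0. Summed myeloid markers were at 4.45 to 5.33 CPM in shDHX15_MYC and 0.229 to 0.594 CPM in shDHX15, against 0.405 to 0.867 CPM in shControl, and natural killer and erythroid markers summed to at most 0.973 CPM, with NCR1 at 0. Markers of adherent or packaging cells summed to 40.2 to 41.8 CPM in shDHX15_MYC and 17.6 to 19.4 CPM in shDHX15, against 23.2 to 23.8 CPM in shControl. The part of these shifts in the results below was not tested. In RNA from bulk cells, a change in the share of cells in a cycle phase and a change in RNA per cell cannot be told apart.

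**Figure D1:**
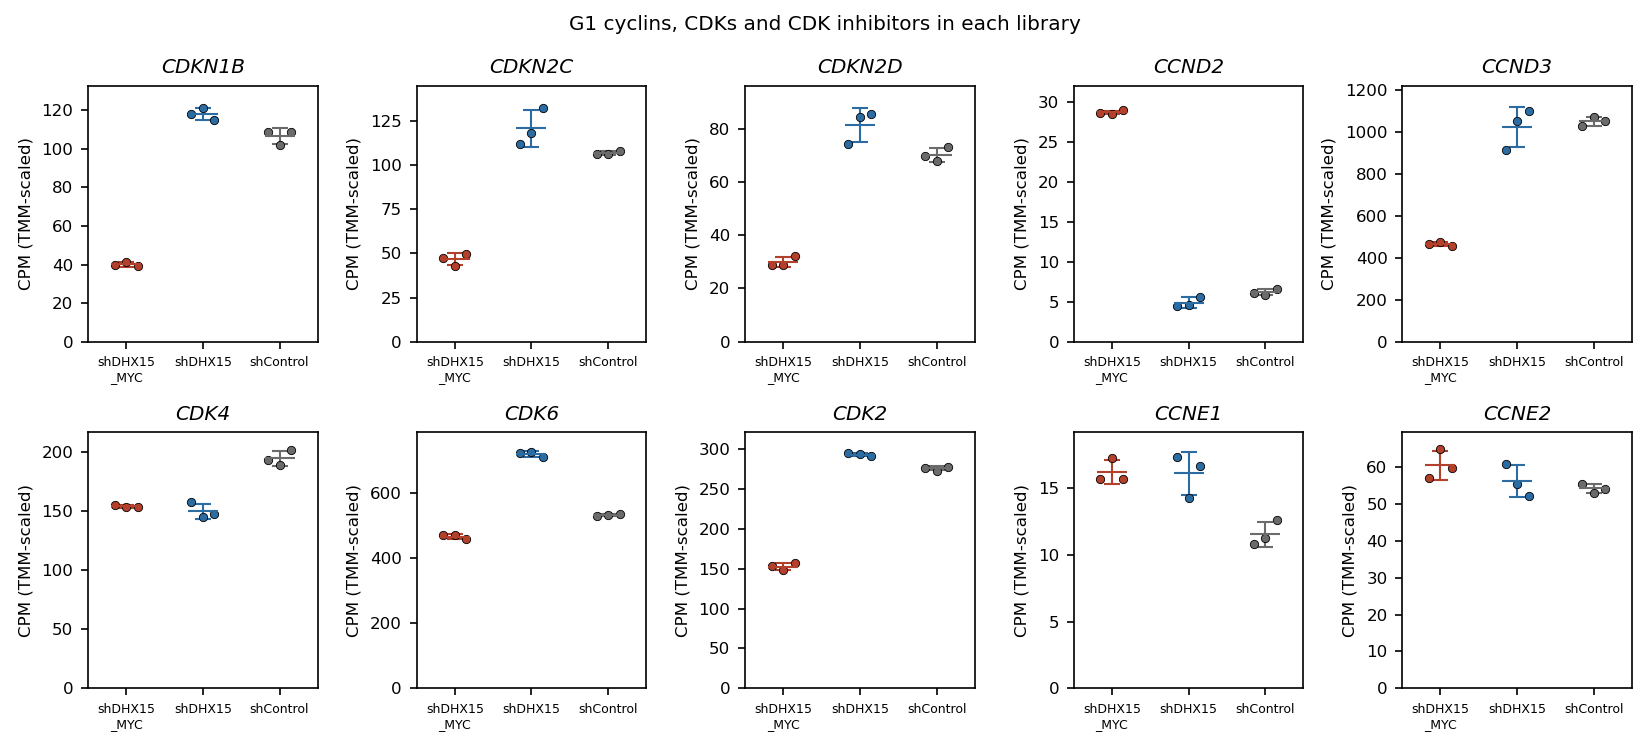
Level of each of the 10 genes in the 9 libraries, in TMM-scaled CPM (linear axes from 0; points are libraries, horizontal bars the mean and whiskers the SD of 3 libraries). CDKN1B, CDKN2C, CDKN2D, CCND3 and CDK2 lie lowest in shDHX15_MYC, CCND2 lies highest there, CDK6 lies highest in shDHX15, and CDK4 lies highest in shControl.

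Compared per kilobase of exon (FPKM, TMM-scaled CPM divided by exon length in kilobases), the 10 genes spanned a wide range of levels in every group. The length counts every annotated exon base of a gene over all its transcripts, so the order of genes depends on it. In shDHX15_MYC, the level was highest for CCND3 (80.3 FPKM), followed by CDK4 (48.6), CDK2 (39.2), CDK6 (38.1), CDKN2D (20.0), CDKN1B (14.3), CDKN2C (14.1), CCNE2 (13.8), CCNE1 (6.36) and CCND2 (4.01 FPKM). CDK2 and CDK6 overlapped there, at 38.0 to 40.4 and 37.5 to 38.4 FPKM, as did CDKN1B, CDKN2C and CCNE2. In shDHX15, CCND3 (176 FPKM) and CDK2 (75.3) came first, then CDK6 (58.8), CDKN2D (54.1), CDK4 (47.2), CDKN1B (41.9), CDKN2C (36.3), CCNE2 (12.8), CCNE1 (6.34) and CCND2 (0.684 FPKM), and only CDKN2D and CDK4 overlapped between neighbours in this order. In shControl, the order ran from CCND3 (181 FPKM) over CDK2 (70.8), CDK4 (61.3), CDKN2D (46.7), CDK6 (43.5), CDKN1B (37.9), CDKN2C (32.2), CCNE2 (12.3) and CCNE1 (4.52) to CCND2 (0.864 FPKM), with no overlap between neighbours. CCND3 was thus at the top in every group and CCND2 at the bottom. By these lengths, CDK6 stood above CDK4 in shDHX15 but below it in the other groups. The CDK4 counts may include reads of TSPAN31, a gene that shares exon bases with CDK4.

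DHX15 knockdown moved most of the 10 genes, and all of them by small amounts. In shDHX15 against shControl, CDKN1B, CDKN2C, CDKN2D, CDK6, CDK2 and CCNE1 rose, CDK4 and CCND2 fell, and CCND3 and CCNE2 did not pass the test. Of the 10 genes, 6 were called higher, against 22.0% of the 15309 genes tested, and 2 lower, against 23.0% (adjusted p under 0.05, edgeR quasi-likelihood test with Benjamini-Hochberg adjustment). Their log2 fold changes lay between -0.38 and 0.48. The median log2 fold change was 0.12 over the 10 genes and -0.00 over all genes tested. Scaling by total counts in place of TMM gave the same 6 and 2 calls, while over all genes it turned 3362 higher and 3524 lower calls into 4576 and 2568.

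The 3 inhibitors among the 10 genes rose together with the hairpin. CDKN1B was at 118, 121 and 115 CPM in shDHX15, against 109, 102 and 109 CPM in shControl. CDKN2C was at 112, 118 and 132 CPM in shDHX15, against 106, 106 and 108 CPM in shControl. CDKN2D, the shorter of these INK4 transcripts, was at 74.2, 84.2 and 85.6 CPM in shDHX15, against 69.6, 67.9 and 73.0 CPM in shControl. In none of them did the groups overlap, although replicate 1 of shDHX15 was the lowest of its group for both INK4 genes. The log2 fold changes were 0.15 for CDKN1B (SE 0.0384, adjusted p = 0.00495), 0.18 for CDKN2C (SE 0.0545, adjusted p = 0.0141) and 0.21 for CDKN2D (SE 0.0561, adjusted p = 0.00517). Without replicate 1 of shDHX15 they were 0.15, 0.23 and 0.27. Without replicate 3 of shDHX15, CDKN2C was no longer called (log2 fold change 0.11, adjusted p = 0.0878).

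The G1 kinases moved in opposite directions. CDK6 was at 724, 728 and 712 CPM in shDHX15, against 529.6, 533 and 538 CPM in shControl. CDK4, its close relative, was at 157, 145 and 147 CPM in shDHX15, against 193, 189 and 201 CPM in shControl. Every shDHX15 library lay above every shControl library for CDK6 and below every one for CDK4. CDK6 rose 1.35-fold (log2 fold change 0.44, SE 0.0263, adjusted p = 1.42e-09), higher than 90.4% of all genes tested, and CDK4 fell 1.30-fold (log2 fold change -0.38, SE 0.0360, adjusted p = 2.95e-07), with 14.3% of genes lower. Without replicate 1 of shDHX15 the log2 values were 0.43 and -0.41. CDK2, the partner of cyclin E, was at 295, 294 and 291 CPM in shDHX15, against 277, 273 and 278 CPM in shControl, a log2 fold change of 0.09 (SE 0.0300, adjusted p = 0.0232). This call of CDK2 was lost without replicate 2 of shDHX15 (adjusted p = 0.0539), without replicate 1 of shControl (0.0580) and without replicate 2 of shControl (0.0833), and without replicate 1 of shDHX15 the value was 0.08 (0.00679).

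CDK4 shares 1369 exon bases, 43.2% of its exon length, with TSPAN31, a tetraspanin gene on the opposite strand, and whether the counting used strand is not given in the sources used here. TSPAN31 was at 108, 103 and 103 CPM in shDHX15_MYC and 70.0, 62.7 and 60.8 CPM in shDHX15, against 84.2, 80.1 and 87.4 CPM in shControl. The log2 fold change of TSPAN31 in shDHX15 against shControl was -0.38 (adjusted p = 9.06e-06), the same to 2 decimals as that of CDK4, and in shDHX15_MYC against shDHX15 it was 0.70 (adjusted p = 3.62e-10), where CDK4 did not pass the test. Reads of the 2 genes over the shared bases cannot be told apart without strand.

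Of the cyclins, 1 of each type moved with the hairpin. CCNE1 was at 17.4, 14.3 and 16.7 CPM in shDHX15, against 10.8, 11.3 and 12.6 CPM in shControl, and the groups did not overlap. It rose 1.40-fold, the largest upward fold change among the 10 genes in this comparison (log2 fold change 0.48, SE 0.0874, adjusted p = 2.38e-04; 0.43 without replicate 1 of shDHX15). CCND2 was at 4.41, 4.64 and 5.64 CPM in shDHX15, from 212, 268 and 266 counts, against 6.14, 5.81 and 6.61 CPM in shControl, from 276, 246 and 310 counts. CCND2 had a log2 fold change of -0.34 (SE 0.0984, adjusted p = 0.00929), and the groups came close but did not overlap; without replicate 1 of shDHX15 the value was -0.28 (adjusted p = 0.0246). CCND3, the main D-type cyclin of these cells by level, was at 916, 1051 and 1099 CPM in shDHX15, against 1028, 1069 and 1053 CPM in shControl, with overlapping groups, a log2 fold change of -0.04 (95% interval -0.14 to 0.06) and an adjusted p of 0.526. It was 0.03 without replicate 1 of shDHX15 (adjusted p = 0.206) and 0.03 under total-count scaling (adjusted p = 0.663), so its sign was not fixed. CCNE2 was at 60.8, 55.4 and 52.2 CPM in shDHX15, against 55.5, 53.1 and 54.0 CPM in shControl, also overlapping, with a log2 fold change of 0.05 (interval -0.07 to 0.17, adjusted p = 0.509), or -0.01 without replicate 1 of shDHX15 (adjusted p = 0.876).

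**Figure D2:**
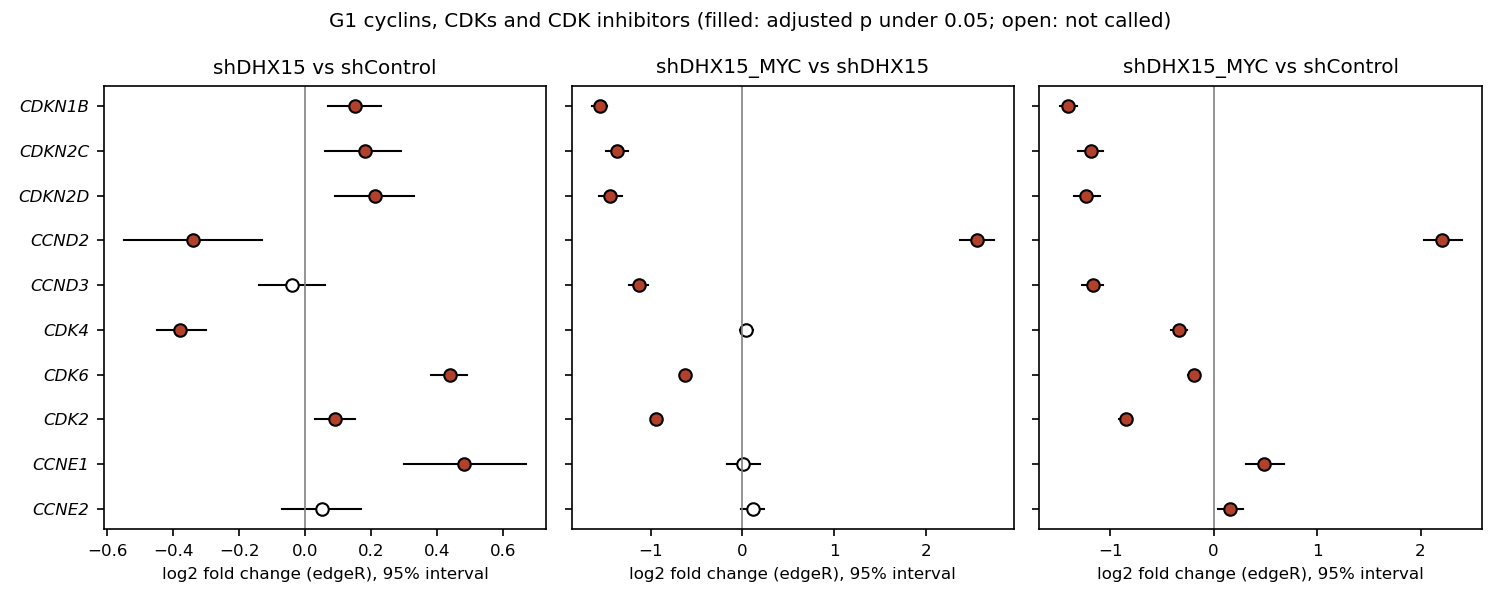
Log2 fold change of each of the 10 genes in the 3 comparisons, with its 95% interval from the edgeR model (the horizontal scales differ; filled points have an adjusted p under 0.05, open points do not). The shDHX15 against shControl values lie between -0.38 and 0.48, whereas CDKN1B, CDKN2C, CDKN2D and CCND3 lie below -1 and CCND2 above 2 in both comparisons of shDHX15_MYC; CDK6 against shControl turns direction under another scaling.

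With added MYC on the knockdown background, the same machinery differed by larger amounts. In shDHX15_MYC against shDHX15, the 3 inhibitors, CCND3, CDK2 and CDK6 fell, CCND2 rose, and CDK4, CCNE1 and CCNE2 did not pass the test. Of the 10 genes, 1 was called higher, against 42.1% of all genes tested, and 6 lower, against 42.6%. The median log2 fold change was -0.78 over the 10 genes and 0.01 over all genes. It was -0.20 over the genes averaging 3 or more on the log2 CPM scale, as all 10 do. Scaling by total counts moved the median of all genes to 0.20 and the calls over all genes from 6438 higher and 6528 lower to 7679 and 5348; the same 6 of the 10 genes fell, and 4 were called higher in place of 1.

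These 3 inhibitors all fell more than 2-fold. CDKN1B was at 39.6, 41.5 and 39.3 CPM in shDHX15_MYC, against 118, 121 and 115 CPM in shDHX15. CDKN2C was at 47.4, 43.1 and 49.6 CPM in shDHX15_MYC, against 112, 118 and 132 CPM in shDHX15. CDKN2D was at 28.8, 28.9 and 32.3 CPM in shDHX15_MYC, against 74.2, 84.2 and 85.6 CPM in shDHX15. No shDHX15_MYC library came near the shDHX15 range for any of them. The levels were 2.94-fold lower for CDKN1B (log2 fold change -1.55, SE 0.0406, adjusted p = 4.51e-16), 2.58-fold lower for CDKN2C (-1.37, SE 0.0570, adjusted p = 2.39e-13) and 2.71-fold lower for CDKN2D (-1.44, SE 0.0592, adjusted p = 2.03e-13). Of all genes tested, 6.38% had a lower log2 fold change than CDKN1B, 8.49% than CDKN2C and 7.64% than CDKN2D. Under total-count scaling the 3 values were -1.36, -1.17 and -1.24, beside the all-gene median of 0.20, and without replicate 1 of shDHX15 they were -1.56, -1.43 and -1.51.

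The D-type cyclins went opposite ways. CCND2 was at 28.6, 28.5 and 28.9 CPM in shDHX15_MYC, from 1357, 1377 and 1350 counts, against 4.41, 4.64 and 5.64 CPM in shDHX15. CCND3 was at 466, 474 and 458 CPM in shDHX15_MYC, against 916, 1051 and 1099 CPM in shDHX15. Both changes lay well outside the spread between libraries. CCND2 rose 5.87-fold (log2 fold change 2.55, SE 0.0890, adjusted p = 2.11e-14) and CCND3 was 2.19-fold lower (log2 fold change -1.13, SE 0.0473, adjusted p = 2.49e-13). Without replicate 1 of shDHX15 the values were 2.48 and -1.21. Even so, CCND2 made up 4.75 ± 0.107% of the summed D-type FPKM in shDHX15_MYC and 0.386 ± 0.0290% in shDHX15, against 0.475 ± 0.0343% in shControl. The summed FPKM of both D-type cyclins was 84.3 ± 1.30 in shDHX15_MYC and 177 ± 16.4 in shDHX15, against 182 ± 3.52 in shControl (SD, n = 3 each).

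Among the kinases, CDK2 and CDK6 fell and CDK4 did not pass the test. CDK2 was at 153, 148 and 157 CPM in shDHX15_MYC, against 295, 294 and 291 CPM in shDHX15, 1.92-fold lower (log2 fold change -0.94, SE 0.0306, adjusted p = 8.16e-15). CDK6 was at 471, 471 and 459.9 CPM in shDHX15_MYC, against 724, 728 and 712 CPM in shDHX15, 1.54-fold lower (log2 fold change -0.63, SE 0.0263, adjusted p = 2.76e-13). For both genes the groups were far apart, and without replicate 1 of shDHX15 the values were again -0.94 and -0.63. CDK4 was at 155, 153 and 153 CPM in shDHX15_MYC, against 157, 145 and 147 CPM in shDHX15, with overlapping groups and a log2 fold change of 0.04 (95% interval -0.03 to 0.12, adjusted p = 0.292). The CDK4 call depended on scaling and on 1 library. It was higher under total-count scaling (0.24, beside the all-gene median of 0.20), under DESeq2 size factors (0.08, adjusted p = 0.0494) and without replicate 1 of shDHX15 (0.07, adjusted p = 0.0252).

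Neither E-type cyclin passed the test between shDHX15_MYC and shDHX15. CCNE1 was at 15.7, 17.3 and 15.7 CPM in shDHX15_MYC, against 17.4, 14.3 and 16.7 CPM in shDHX15, with a log2 fold change of 0.01 (95% interval -0.17 to 0.19, adjusted p = 0.926). CCNE2 was at 57.1, 64.8 and 59.7 CPM in shDHX15_MYC, against 60.8, 55.4 and 52.2 CPM in shDHX15, with a log2 fold change of 0.11 (interval -0.01 to 0.23, adjusted p = 0.0792). The groups overlapped for both. CCNE2 was called higher under total-count scaling (0.31), DESeq2 size factors (0.15) and DESeq2's Wald test (0.15), and without replicate 1 of shDHX15_MYC (0.15, adjusted p = 0.0397) or of shDHX15 (0.16, adjusted p = 0.00203). CCNE1 was called higher under total-count scaling (0.21, adjusted p = 0.0314) and was at 0.06 without replicate 1 of shDHX15 (adjusted p = 0.517). CCNE2 shares 1629 exon bases, 37% of its exon length, with INTS8 on the opposite strand. INTS8, an Integrator subunit, was at 60.7, 65.6 and 62.1 CPM in shDHX15_MYC and 90.9, 84.0 and 80.8 CPM in shDHX15, against 78.4, 76.7 and 72.2 CPM in shControl, so its log2 fold change with added MYC (-0.44, adjusted p = 1.93e-07) was opposite in sign to that of CCNE2.

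Set against the control hairpin, cells with both the DHX15 hairpin and MYC differed in every one of the 10 genes. In shDHX15_MYC against shControl, CCND2, CCNE1 and CCNE2 were called higher, 3 of 10 against 42.0% of all genes tested, and the 3 inhibitors, CCND3, CDK2, CDK4 and CDK6 were called lower, 7 of 10 against 42.5%. This comparison shares its libraries with those above, so its values are given beside theirs and not as a further test of them. The log2 fold changes were -1.41 for CDKN1B, -1.19 for CDKN2C, -1.23 for CDKN2D, -1.17 for CCND3, -0.85 for CDK2 and 2.21 for CCND2. Total-count scaling moved the median of all genes from 0.02 to 0.28 and the calls over all genes from 6437 higher and 6502 lower to 8128 and 4893. These 6 genes kept their calls and directions under it, with CDKN1B at -1.14 and CCND2 at 2.48. CCNE1 was 1.41-fold higher (log2 fold change 0.49, adjusted p = 5.51e-05), close to its 1.40-fold in shDHX15 against shControl.

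For CDK4, CDK6 and CCNE2 the comparison of shDHX15_MYC with shControl was less firm. CDK4 fell by 0.34 on the log2 scale (adjusted p = 1.29e-07), but under total-count scaling its value was -0.07 and not called (adjusted p = 0.0797). CDK6 fell by 0.19 on the log2 scale (adjusted p = 2.97e-06), but it turned direction under total-count scaling (0.07, adjusted p = 0.0153) and when scaling and tests used only genes averaging 3 or more on the log2 CPM scale (0.02, adjusted p = 0.521). Under TMM scaling, the median log2 fold change over genes at that level was also -0.19. CCNE2, with a log2 fold change of 0.16 (adjusted p = 0.0154), was no longer called without replicate 2 of shDHX15_MYC (0.10, adjusted p = 0.121), without replicate 2 of shControl (0.14, adjusted p = 0.0711) or without replicate 3 of shControl (0.15, adjusted p = 0.0508).

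Ratios between paralogues within a library do not depend on how libraries are scaled, and they are given as descriptions without a test. The FPKM ratio of CDK6 to CDK4 was 0.784 ± 0.00926 in shDHX15_MYC and 1.25 ± 0.0558 in shDHX15, against 0.710 ± 0.0178 in shControl (SD, n = 3 each). It lay at 1.19 to 1.30 in the 3 shDHX15 libraries and at 0.693 to 0.794 in the other 6. By the exon lengths used, CDK6 exceeded CDK4 in shDHX15 and not in the other groups. That crossing depends on these lengths and on TSPAN31 reads that may be in the CDK4 counts. The shift of the ratio between groups does not depend on the lengths, but TSPAN31 reads may enter it too. The ratio of CCND2 to CCND3 was 0.0499 ± 0.00118 in shDHX15_MYC and 0.00388 ± 2.92e-04 in shDHX15, against 0.00478 ± 3.46e-04 in shControl. Here shDHX15_MYC stood far above both other groups, which did not overlap each other. The ratio of CCNE2 to CCNE1 was 2.16 ± 0.0548 in shDHX15_MYC and 2.02 ± 0.215 in shDHX15, against 2.74 ± 0.248 in shControl. The hairpin groups overlapped each other for the E-type cyclins, and both lay below shControl. The ratio of CDKN2C to CDKN2D was 0.706 ± 0.0373 in shDHX15_MYC and 0.672 ± 0.0316 in shDHX15, against 0.689 ± 0.0203 in shControl, with all groups overlapping, while the level of each gene differed more than 2-fold between groups.

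**Figure D3:**
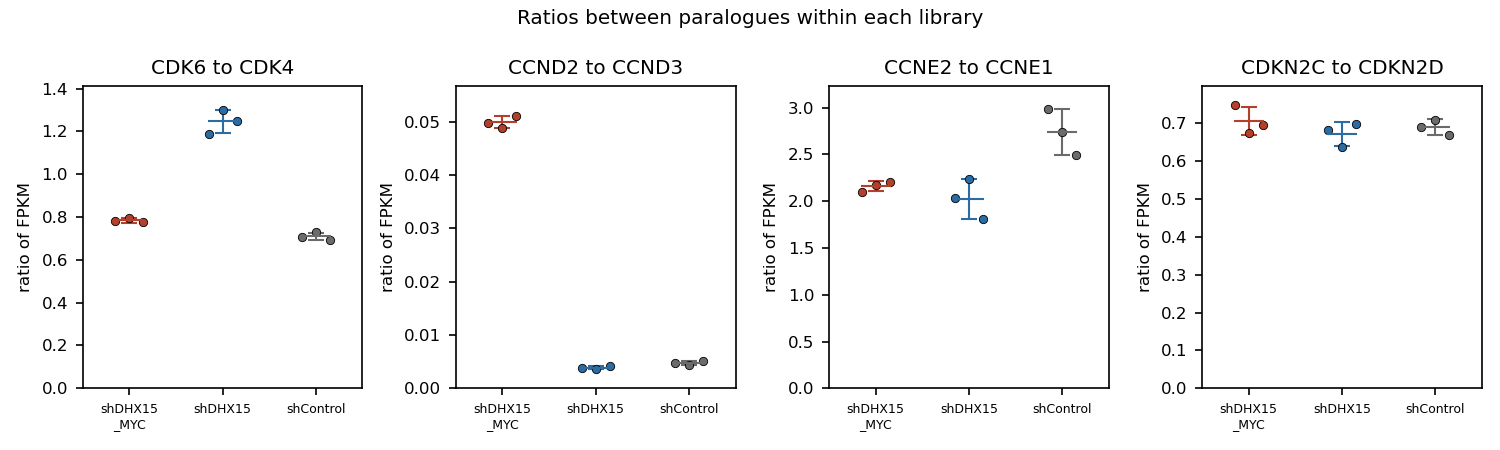
FPKM ratio of each paralogue pair in the 9 libraries (linear axes from 0; points are libraries, horizontal bars the mean and whiskers the SD of 3 libraries). CDK6 to CDK4 is highest in shDHX15 (1.19 to 1.30), CCND2 to CCND3 is highest in shDHX15_MYC (0.0488 to 0.0511), CCNE2 to CCNE1 is highest in shControl (2.49 to 2.99), and CDKN2C to CDKN2D overlaps across groups.

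The INK4 inhibitors were also set against the kinases they bind. Summed FPKM of CDKN2C and CDKN2D was 34.0 ± 2.19 in shDHX15_MYC and 90.5 ± 6.87 in shDHX15, against 78.9 ± 1.96 in shControl. Summed FPKM of CDK4 and CDK6 was 86.7 ± 0.795 in shDHX15_MYC and 106 ± 2.23 in shDHX15, against 105 ± 2.12 in shControl. The inhibitor sum was therefore 0.393 ± 0.0283 of the kinase sum in shDHX15_MYC and 0.854 ± 0.0816 in shDHX15, against 0.752 ± 0.00362 in shControl. These are RNA levels and not amounts of protein.

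The G1 genes outside the 10 showed that not every inhibitor fell with added MYC. CDKN1A, the CIP/KIP inhibitor induced by p53, was at 668, 661 and 670.5 CPM in shDHX15_MYC, against 105, 125 and 125 CPM in shDHX15. It rose 5.63-fold (log2 fold change 2.49, SE 0.0509, adjusted p = 1.95e-17), as CDKN1B fell. With the hairpin alone CDKN1A had a log2 fold change of 0.06 (adjusted p = 0.376), but without replicate 1 of shDHX15 it was called higher, at 0.14 (adjusted p = 4.76e-05). CDKN2A, which encodes an INK4 inhibitor and ARF, averaged 89.7 ± 2.82 CPM in shDHX15_MYC, against 51.8 ± 3.20 CPM in shDHX15, and rose by 0.79 on the log2 scale (adjusted p = 2.76e-11), whereas its neighbour CDKN2B was at 3.95, 4.16 and 4.45 CPM in shDHX15_MYC, against 5.95, 8.70 and 6.36 CPM in shDHX15, and fell by 0.75 on the log2 scale (adjusted p = 5.89e-05). With the hairpin alone CDKN2A had a log2 fold change of -0.11 and was not called (adjusted p = 0.0601). It was called lower without replicate 2 (-0.14, adjusted p = 0.0406) or replicate 3 of shDHX15 (-0.14, adjusted p = 0.0368). CDKN2B was not called with the hairpin alone (0.08, adjusted p = 0.657). The last CIP/KIP gene, CDKN1C, was near the limit of detection, at 0.0828 to 0.171 CPM in shDHX15_MYC, against 0.242 to 1.02 CPM in shDHX15 (log2 fold change -2.46, SE 0.594, adjusted p = 9.95e-04). CCND1, the remaining D-type cyclin, was at 2.22, 2.38 and 1.99 CPM in shDHX15_MYC, against 1.31, 1.40 and 1.14 CPM in shDHX15 (log2 fold change 0.77, adjusted p = 0.00268).

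Of the later cyclins and kinases, CCNA2, the S-phase cyclin, was at 101 ± 3.68 CPM in shDHX15_MYC, against 198 ± 3.72 CPM in shDHX15 (log2 fold change -0.96, adjusted p = 2.53e-14). CDK1, the mitotic kinase, was at 89.1 ± 2.93 CPM in shDHX15_MYC and 187 ± 20.2 CPM in shDHX15, against 155 ± 3.04 CPM in shControl. CDK1 fell by 1.07 on the log2 scale with added MYC (adjusted p = 5.67e-12) and rose by 0.27 with the hairpin alone (adjusted p = 6.41e-04). CCNA1, the germ-line A-type cyclin, had 2 to 24 counts per library, and CDK3 passed the test in none of the 3 comparisons. In all, of these 9 genes, 4 were called higher and 4 lower in shDHX15_MYC against shDHX15, where 42.1% and 42.6% of all genes were. In shDHX15 against shControl 1 was called higher and 1 lower, against 22.0% and 23.0% of all genes, which became 2 higher without replicate 1 of shDHX15 and 2 lower without its replicate 2.

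Among the pocket proteins and E2F partners, through which the G1 kinases act, RBL2 and TFDP2 fell furthest with added MYC. Of 18 genes for pocket proteins, E2F factors and the DREAM complex, 5 were called higher and 9 lower in shDHX15_MYC against shDHX15, beside 42.1% higher and 42.6% lower over all genes. Their median log2 fold change was -0.11, against 0.01 over all genes and -0.20 over genes averaging 3 or more on the log2 CPM scale. RBL2, the pocket protein of quiescent cells, was at 71.9 ± 3.52 CPM in shDHX15_MYC and 347 ± 16.3 CPM in shDHX15, against 293 ± 3.36 CPM in shControl, 4.83-fold lower with added MYC (log2 fold change -2.27, adjusted p = 4.47e-18). TFDP2, a dimerisation partner of E2F factors, was at 79.7 ± 0.565 CPM in shDHX15_MYC and 390.1 ± 4.31 CPM in shDHX15, against 525.0 ± 3.58 CPM in shControl, and fell in both steps (log2 fold changes -2.29 with MYC and -0.43 with the hairpin). RB1 fell by 0.95 and RBBP4, a DREAM subunit, fell by 0.78 on the log2 scale with added MYC. With the hairpin alone 4 of the 18 were called higher and 5 lower, shares near the 22.0% and 23.0% of all genes, or 6 and 3 under total-count scaling, and 2 were higher without replicate 1 or without replicate 3 of shControl. RBL2 rose by 0.24 (adjusted p = 6.13e-05) and RB1 by 0.18 (adjusted p = 4.98e-04).

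Enzymes that set CDK phosphorylation went both ways. Of 8 genes, 4 were called higher and 3 lower in shDHX15_MYC against shDHX15 (median 0.01; 42.1% and 42.6% of all genes), and 4 higher and 0 lower in shDHX15 against shControl (median 0.12; 22.0% and 23.0% of all genes). CDC25A, the phosphatase that activates CDK2, was at 290.4 ± 1.65 CPM in shDHX15_MYC, against 103 ± 2.11 CPM in shDHX15, and rose 2.83-fold (log2 fold change 1.50, adjusted p = 2.55e-17). Its relative CDC25B was at 137 ± 4.87 CPM in shDHX15_MYC, against 455 ± 32.2 CPM in shDHX15, 3.33-fold lower (log2 fold change -1.73, adjusted p = 2.78e-16). The inhibitory kinases PKMYT1 and WEE1 fell by 0.92 and 0.36 on the log2 scale with added MYC, and WEE1 rose by 0.40 with the hairpin (97.8 ± 1.07 CPM in shDHX15, against 73.9 ± 0.772 CPM in shControl, adjusted p = 8.78e-08).

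Among 15 genes for the turnover of cyclins and inhibitors, 7 were called higher and 7 lower in shDHX15_MYC against shDHX15 (median -0.05), shares near the 42.1% and 42.6% of all genes. In shDHX15 against shControl 4 were called higher and 5 lower (median 0.01), beside 22.0% and 23.0% of all genes, or 5 and 3 under total-count scaling. AMBRA1, the ligase adaptor that targets D-type cyclins, was at 86.4 ± 3.55 CPM in shDHX15_MYC, against 61.1 ± 1.15 CPM in shDHX15, and rose by 0.50 on the log2 scale (adjusted p = 4.06e-09). SKP1, the core of the ligase that degrades CDKN1B, fell by 0.86 on the log2 scale (adjusted p = 3.18e-13). The cullin CUL4B fell by 0.76 (adjusted p = 5.30e-11) and UBAC1, part of a cytoplasmic ligase for CDKN1B, fell by 0.68 on the same scale (adjusted p = 7.21e-09).

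Of 9 transcription factors known to act on G1 genes, 2 were called higher and 5 lower in shDHX15_MYC against shDHX15 (median -0.22), beside 42.1% and 42.6% of all genes. In shDHX15 against shControl 1 was called higher and 5 lower (median -0.13), beside 22.0% and 23.0% of all genes. MYB, a proto-oncogene of immature blood cells, was at 109 ± 2.91 CPM in shDHX15_MYC and 274 ± 6.10 CPM in shDHX15, against 299.5 ± 3.02 CPM in shControl, and fell by 1.33 on the log2 scale with added MYC (adjusted p = 1.56e-16). RUNX1 fell by 0.83 and IKZF1 by 0.43 on the log2 scale in that comparison, and IKZF1 fell by 0.35 with the hairpin (224 ± 5.20 CPM in shDHX15, against 286 ± 4.56 CPM in shControl). HES1, a NOTCH1 target, was at 14.3 ± 0.408 CPM in shDHX15_MYC, against 2.28 ± 0.681 CPM in shDHX15, and rose 6.29-fold (log2 fold change 2.65, adjusted p = 8.01e-12). Under total-count scaling 2 of the 9, not 5, were lower with the hairpin, and 4, not 2, were higher with added MYC.

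Of 22 E2F-induced replication genes, which lie downstream of the G1 kinases, 5 were called higher and 14 lower in shDHX15_MYC against shDHX15 (median -0.44). Over all genes the shares were 42.1% and 42.6%, with a median of 0.01. The median was -0.20 over genes averaging 3 or more on the log2 CPM scale. The list's counts were 8 higher and 13 lower under total-count scaling. With scaling and tests on only genes averaging 3 or more on that scale, 8 were also called higher. CDT1, the replication licensing factor, was at 177 ± 2.34 CPM in shDHX15_MYC, against 433 ± 34.9 CPM in shDHX15 (log2 fold change -1.29). MCM7, a subunit of the replicative helicase, went the other way, at 1053 ± 9.17 CPM in shDHX15_MYC, against 629 ± 4.92 CPM in shDHX15, as did MYBL2, at 480.2 ± 8.84 CPM, against 265 ± 14.4 CPM (log2 fold changes 0.74 and 0.86). In shDHX15 against shControl, 3 of the 22 were called higher and 8 lower (median -0.04), beside 22.0% and 23.0% of all genes, and this split turned to 8 and 6 under total-count scaling; 7 were higher without replicate 1 of shDHX15.

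**Figure D4:**
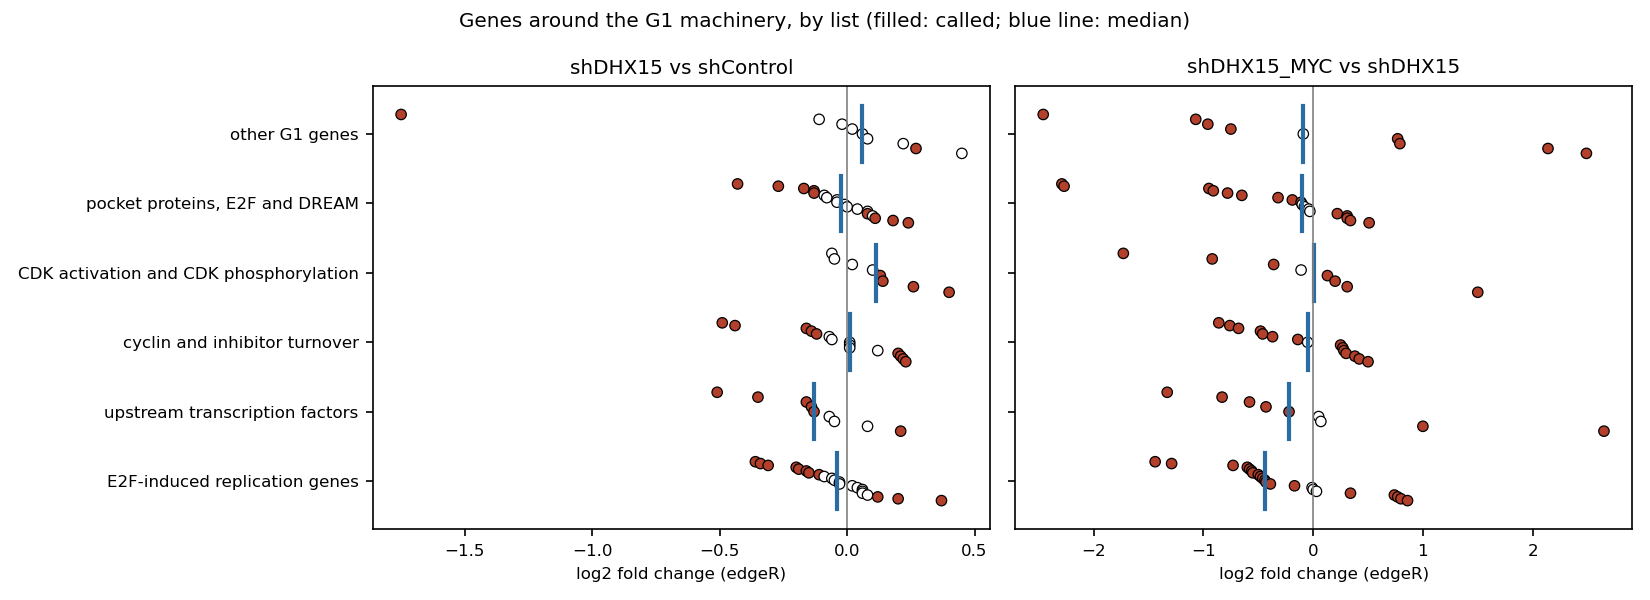
Log2 fold change (edgeR) of the genes of 6 lists around the G1 machinery, in shDHX15 against shControl (left) and in shDHX15_MYC against shDHX15 (right). Each point is a gene, filled where its adjusted p is under 0.05, and the vertical line marks the list's median; E2F-induced replication genes have a median of -0.44 with added MYC, and the other medians lie between -0.22 and 0.12.

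For each of the 10 genes, the closest profile among 9756 well expressed genes was taken as the smallest root mean square distance between centred log2 CPM over the 9 libraries. CDK2 was closest to HJURP, a centromere chaperone, at a distance of 0.0197, and CDK4 to RPL8, a ribosomal protein gene, at 0.0218. CDK6 was closest to ARHGAP11A (0.0264), CCND3 to CTDSP1 (0.0349), CCNE2 to GNPDA2 (0.0382) and CDKN1B to GPI, the glycolytic isomerase (0.0404). CDKN2C was closest to FAM213B (0.0499), CDKN2D to P2RX1 (0.0514), CCNE1 to CARNMT1 (0.0671) and CCND2 to OAS1, an interferon-induced gene (0.106). RPL8 had log2 fold changes of -0.36 in shDHX15 against shControl and 0.04 in shDHX15_MYC against shDHX15, beside -0.38 and 0.04 for CDK4. OAS1 had -0.35 and 2.66, beside -0.34 and 2.55 for CCND2. The distance is a description over libraries that fall into 3 groups, and its 1 nearest gene was chosen from many.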

How the data were processed

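Total RNA was treated with DNase, poly(A) selected and read from both ends for 150 bp, per the labels' protocols. Per the submitters' processing notes, FastQC 0.11.9, HISAT2 2.2.1, DESeq2 1.32.0 and the build hg38 were used. The sources used here do not name the counting program, its strand setting or its annotation. The authors deposited whole-number read counts per gene. Of counts from 1 to 19, 70.3% to 77.8% per library were even, as when both reads of a pair are counted, so counts may exceed fragments. Columns were joined to samples by name; hairpin-number columns were taken as shDHX15, the only target the labels name.

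Of 17637 genes, 15309 passed filterByExpr (edgeR 4.0.16, R 4.3.3). They were TMM-scaled and fitted with edgeR's quasi-likelihood method on all 9 libraries, 1 mean for each group (6 residual degrees of freedom), tested 2-sided with Benjamini-Hochberg adjustment over all tested genes, and called at an adjusted p under 0.05. The steps were tested on simulated data, fitted on the 2 groups compared only. Of 1.25-fold changes, 60.0% were recovered in shDHX15 against shControl, 52.0% in shDHX15_MYC against shDHX15 and 62.0% in shDHX15_MYC against shControl. Of 2-fold changes, 80.0%, 86.0% and 94.0% were recovered in the same order. The changed genes were drawn at any level of expression, so these shares are not specific to the 10 genes. A gene not called may still have changed by a small amount. Adjusted p-values are from edgeR unless DESeq2 is named. A count of 0 allows 0.0503 to 0.0712 CPM (3 counts), counting error only. Exon lengths, positions and overlaps are from GENCODE v29 (GRCh38, the assembly of hg38), and 95.1% of symbols matched. None of the 10 genes shared a 100-base transcript window with another locus, overlapping genes left aside. AC008012.1 shares 989 exon bases (13.8% of exon length) with CCND2 on the same strand. AC025162.1 shares 565 (14.5%) with CDK2 on the opposite strand. Neither is among the deposited genes, and their reads may be in the CCND2 and CDK2 counts. Replicates may be technical, since the labels do not say that cultures were separate. Libraries of the same number did not deviate together (r -0.0239 to 0.0412 across genes), so they were not paired.

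The 10 genes and the lists were chosen with earlier results of these data known. The text names all 10, every gene of the list of other G1 genes, the 4 genes of each further list with the smallest adjusted p in either of the first 2 comparisons (1 of these is not reported here), and overlapping genes named for their shared exons. Alternatives were total-count scaling, DESeq2 1.42.0 size factors and Wald test, other filters, single-locus genes only, the 2 groups compared only, a replicate block and each library left out.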

Additional observations from a re-analysis of the deposited data

How the results depend on the processing

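Over 17 alternatives, 166 of 170 member values kept their call (higher, lower or not called) in shDHX15 against shControl, 158 of 170 in shDHX15_MYC against shDHX15 and 164 of 170 in shDHX15_MYC against shControl. Values near 0 that were not called changed sign in some settings: with the hairpin, CCND3 (-0.04) was 0.03 under total-count scaling and without shDHX15 replicate 1, and CCNE2 (0.05) was -0.01 without that library; with added MYC, CCNE1 (0.01) was -0.01 with no filter on low counts and with single-locus genes only, and -0.06 to 0.06 with 1 library left out. The number of the 10 genes called higher in shDHX15_MYC against shDHX15, 1 under TMM, was 4 under total-count scaling, 3 with DESeq2 size factors in edgeR, 2 by DESeq2's Wald test, 4 with only genes averaging 3 or more on the log2 CPM scale, and 1 to 3 when 1 library was left out. The genes added were CCNE2, CDK4 and CCNE1, and the number called lower was 6 under these settings. CDK6 in shDHX15_MYC against shControl reversed to 0.07 under total-count scaling and to 0.02 with those genes only; total-count scaling moved the median of all genes from 0.02 to 0.28, and the cause was not tested. With the replicate number as a replicate block, the calls of all 10 genes were the same in all 3 comparisons, with 6 higher and 2 lower in shDHX15 against shControl (CDKN1B 0.15, CDK4 -0.38) and 1 higher and 6 lower in shDHX15_MYC against shDHX15; the labels do not say that the numbers pair the libraries. CCND2 rests on 212 to 310 counts per library without added MYC, which limits the precision of its small change with the hairpin.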
